A study of Mus musculus with 10 samples.

Results

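The genes described here encode ion channels: the potassium, sodium, calcium, chloride and transient receptor potential (Trp) channels, with their auxiliary subunits, the calcium-activated chloride channels and scramblases of the Ano family, and the chloride channel Cftr. They were taken by gene symbol, as the probe sets whose single symbol began with Kcn, Scn, Cacn, Trpa, Trpc, Trpm, Trpv, Clcn or Ano in its channel form, or was Cftr, and Trpm5 was left out. The symbols found 153 genes on 319 probe sets, of 18194 genes with a probe set of their own and 45101 probe sets in all. Each gene was represented by its probe set with the highest mean. The rule reads symbols only, while the probe set of each gene was picked by its measured mean over both groups.

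RNA had been extracted from medullary thymic epithelial cells (mTECs) sorted from the thymus, and each preparation was hybridised to 1 Affymetrix array, which reports a signal intensity for every probe set. The 5 arrays of the Fezf2 KO group, KO 6 to KO 10, came from mice labelled as lacking Fezf2, and the 5 arrays of the wild-type (WT) group, WT 1 to WT 5, from mice with no change named. Both groups shared the C57BL/6 background, an age of 3 weeks and the sort for cells without CD45, with EpCAM and with high CD80, a surface profile of mature mTECs. The labels name neither the allele nor any Cre driver, and nothing in them says that a group's arrays stem from different mice. The p-values therefore speak of array-to-array spread only, which may be technical. In sorted bulk RNA, fewer cells of a type and less RNA per cell cannot be told apart.

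Ion channels let ions cross membranes down their electrochemical gradients. Voltage, calcium, nucleotides, lipids or chemical ligands open them, and most are assemblies of pore-forming subunits with auxiliary subunits that set gating or trafficking. Most of these genes are known for their work in nerve, heart, muscle, secretory epithelium or sensory cells. Mature mTECs express many genes of such peripheral tissues at low level and display their products to developing T cells, and Fezf2 is a transcription factor that controls part of this expression.

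The members that fell and rose most are shown first by their promoters, as 300 bases from RefSeq on assembly GRCm38.p6, running 5′ to 3′ on the gene's strand from 250 bases before the annotated start to 50 after it. Kcnj3 and Kcnj5, which encode subunits of 1 channel, are shown because they had the 2 largest falls among the ion channel genes. Cftr and Clcn2 are shown because they had the 2 largest rises. Capitals mark every match, on either strand, to the TATA box with the letters TATAAA, to the CCAAT box with the letters in its name, to the GC box with the letters GGGCGG, or to 1 form of the E-box with the letters CAGCTG. The Kcnj3 promoter lies at chr2:55435720-55436019 on the plus strand and the Kcnj5 promoter at chr9:32344295-32344594 on the minus strand.
Kcnj3: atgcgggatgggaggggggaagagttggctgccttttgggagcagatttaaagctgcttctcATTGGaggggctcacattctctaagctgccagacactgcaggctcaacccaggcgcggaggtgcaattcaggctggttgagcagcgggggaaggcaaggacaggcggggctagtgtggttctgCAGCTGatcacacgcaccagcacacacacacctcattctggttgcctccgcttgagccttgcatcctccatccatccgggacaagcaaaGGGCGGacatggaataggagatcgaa
Kcnj5: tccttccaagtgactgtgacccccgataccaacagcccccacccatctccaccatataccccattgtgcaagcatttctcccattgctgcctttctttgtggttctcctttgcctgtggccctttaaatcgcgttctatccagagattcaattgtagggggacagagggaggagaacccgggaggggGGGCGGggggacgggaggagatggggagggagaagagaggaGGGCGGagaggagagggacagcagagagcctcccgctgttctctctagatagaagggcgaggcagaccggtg
The Cftr promoter lies at chr6:18170437-18170736 on the plus strand and the Clcn2 promoter at chr16:20716587-20716886 on the minus strand.
Cftr: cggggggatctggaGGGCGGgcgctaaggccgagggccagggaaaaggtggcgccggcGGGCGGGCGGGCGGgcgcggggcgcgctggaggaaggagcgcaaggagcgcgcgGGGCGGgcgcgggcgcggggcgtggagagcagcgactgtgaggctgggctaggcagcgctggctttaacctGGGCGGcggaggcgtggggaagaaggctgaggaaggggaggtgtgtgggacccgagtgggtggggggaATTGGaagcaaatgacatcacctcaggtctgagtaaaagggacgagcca
Clcn2: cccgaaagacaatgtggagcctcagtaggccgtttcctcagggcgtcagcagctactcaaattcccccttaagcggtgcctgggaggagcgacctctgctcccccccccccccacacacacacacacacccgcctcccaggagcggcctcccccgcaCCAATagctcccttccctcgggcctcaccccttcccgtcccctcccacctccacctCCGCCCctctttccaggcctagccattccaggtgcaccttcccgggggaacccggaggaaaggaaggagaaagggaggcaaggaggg
In these windows Kcnj3 held 1 CCAAT box, 1 GC box and 1 E-box, and Kcnj5 held 2 GC boxes. Cftr held 6 GC boxes, some overlapping, and 1 CCAAT box, with 31 CpG dinucleotides and a GC content of 71.3%. Clcn2 held 1 CCAAT box and 1 GC box, and none of the 4 windows held a TATA box. The GC box was present in 35.7% of all 32851 promoters of the table, the CCAAT box in 37.4%, the E-box in 16.3% and the TATA box in 13.6%. The 165 promoters listed for 121 of the ion channel genes held the GC box in 44.2%, the CCAAT box in 27.9%, the E-box in 27.9% and the TATA box in 8.5%. The GC box stood in windows of genes that fell and of genes that rose, and a match describes letters, not a site in use.

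Of the 153 ion channel genes, 95 gave a signal above the 40th percentile of its array on at least 5 of the 10 arrays and were tested, together with 14086 genes in all. Signals were compared as log2(value + 16), KO minus WT, with limma, and a gene was called where its p adjusted over all genes by the Benjamini-Hochberg method was under 0.05. The offset of 16 makes the log2 changes of low signals smaller than the ratios of the means. Among the 95, 18 fell in KO mTECs, 9 rose and 68 did not pass the test. The 18 that fell were 18.9% of the 95, against 16.2% of all genes tested, and the 9 that rose were 9.47%, against 13.0%. In either direction 28.4% of the ion channel genes were called, close to the 29.2% of all genes, so the number of calls did not set the ion channel genes apart.

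All 5 KO signals lay below all 5 WT signals for 11 ion channel genes (11.6%), against 12.0% of all genes, and above them for 7 (7.37%), against 10.1%. The median log2 change was -0.07 over the 95 ion channel genes and -0.03 over all genes, and 64.2% of the ion channel genes lay below 0, against 55.0% of all genes. Signals were low: 59 of the 95 tested genes had a mean under 100 in both groups, and so did 17 of the 27 called. Of the 95, 86 exceeded the 40th percentile on all 10 arrays and 9 on fewer. By class, a difference between classes not being tested, the Kcnj inward rectifiers had 4 falls and 1 rise among 10 tested, and the voltage-gated sodium and calcium channels 6 falls and 2 rises among 23. Among the 11 tested chloride channels, Cftr and Ano genes, 3 rose and 0 fell by limma. At an unadjusted p under 0.05, 4 were higher, now with Clcn4, and 1, Clcn3, was lower.

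**Figure D1:**
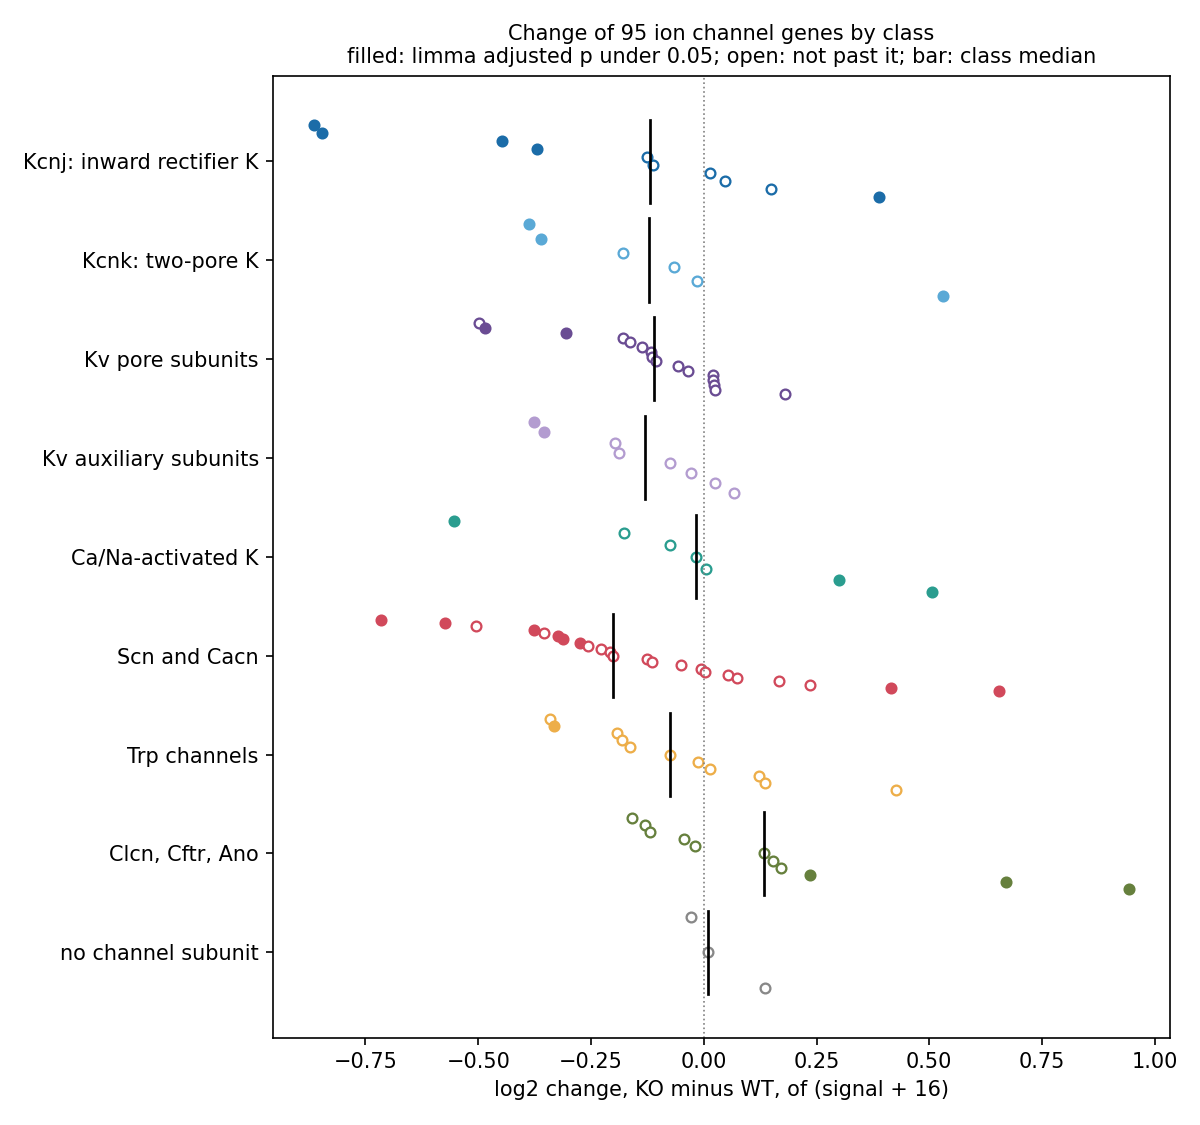
Log2 change (KO minus WT, log2(value + 16) scale) of each of the 95 ion channel genes tested, 1 point per gene, in rows by channel class, with filled points for genes past the adjusted p threshold of 0.05, open points for the rest and a bar at the class median. The row of Clcn, Cftr and Ano genes has its median at 0.13, and the row of voltage-gated sodium and calcium channels at -0.20.

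Inward rectifiers of the Kcnj family pass potassium into the cell more easily than out and hold the resting potential near that of potassium. The 2 largest falls belonged to the subunits of the G protein-gated rectifier of the heart, Kcnj5 (GIRK4) and Kcnj3 (GIRK1), which assemble with each other and open on vagal stimulation. Kcnj5 had signals of 29.4, 29.4, 24.8, 29.7 and 37.1 on KO arrays, against 83.9, 68.6, 78.05, 54.8 and 56.4 on WT arrays. All KO arrays were lower than all WT arrays, and the mean was 30.1 ± 4.45 in KO and 68.4 ± 12.9 in WT (SD, n = 5 each), a 2.27-fold lower mean. Its log2 change was -0.86 (SE 0.11, adjusted p = 9.25e-05). Kcnj3 had signals of 40.01, 40.4, 38.5, 48.6 and 31.7 on KO arrays, against 106, 63.4, 94.99, 96.8 and 65.96 on WT arrays, again without overlap. The mean was 39.9 ± 6.02 in KO and 85.5 ± 19.4 in WT, 2.14-fold lower, and the log2 change was -0.85 (SE 0.13, adjusted p = 0.000434). The second Kcnj3 probe set had a log2 change of -0.81 but passed the signal filter through the WT arrays alone. Their promoters, printed above, share the GC box and no other of the 4 motifs.

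Kcnj15 (Kir4.2), a rectifier of kidney tubule and other epithelia, fell as well. It read 833, 846, 796, 842 and 897 on KO arrays, against 1088, 1073, 1229, 1172 and 1218 on WT arrays. Every KO array was lower than every WT array, with a log2 change of -0.45 (SE 0.06, adjusted p = 0.00016). In a separate limma fit of all 34958 probe sets with 1 symbol, without the signal filter, a second one gave -0.48 (adjusted p = 0.0135). But a further one, of lower signal, gave 0.32 (adjusted p = 0.0627). With the probe sets of a gene averaged, the change was -0.20 and was not called (adjusted p = 0.0574). Kcnj12 (Kir2.2), a strong rectifier of heart and skeletal muscle, had 36.7 ± 8.28 in KO and 51.96 ± 10.1 in WT (SD, n = 5 each), with overlapping groups and a log2 change of -0.37 (adjusted p = 0.0399). This call was lost without WT 1, 2 or 4 or KO 7, 8, 9 or 10, where the change lay between -0.39 and -0.29 and the adjusted p between 0.0539 and 0.0926.

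Kcnj8 (Kir6.1), the pore of the ATP-sensitive channel of vascular muscle, was the only Kcnj gene of the 10 tested that rose. Its signals were 30.6, 36.8, 45.4, 34.8 and 35.3 on KO arrays, against 25.2, 30.9, 24.1, 22.99 and 17.8 on WT arrays, near the 40th percentile of the arrays, which was 21.6 to 22.1. KO 6, the lowest KO array, was below the highest WT array. On the log2 scale the difference was 0.39 (SE 0.09, adjusted p = 0.00725). Of 7 tested endothelial markers, 5 also rose, with a median log2 change of 0.62. Their summed signal was 725.1 to 947.2 on KO arrays and 472 to 783.1 on WT arrays. Among those that rose, Pecam1 and Emcn passed the signal filter through the KO arrays, as WT 1 was the only WT array above it. Their direction was thus favoured by the filter. Of 9 fibroblast and pericyte markers 2 rose and 1 fell. The part of these cell types in the result was not tested. Kcnj11 (Kir6.2), the pore of the ATP-sensitive channel of islets and muscle, had 335 ± 21.9 in KO and 332 ± 32.97 in WT, a log2 change of 0.01 (adjusted p = 0.906). Kcnj9, Kcnj10, Kcnj13 and Kcnj16 did not pass either.

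**Figure D2:**
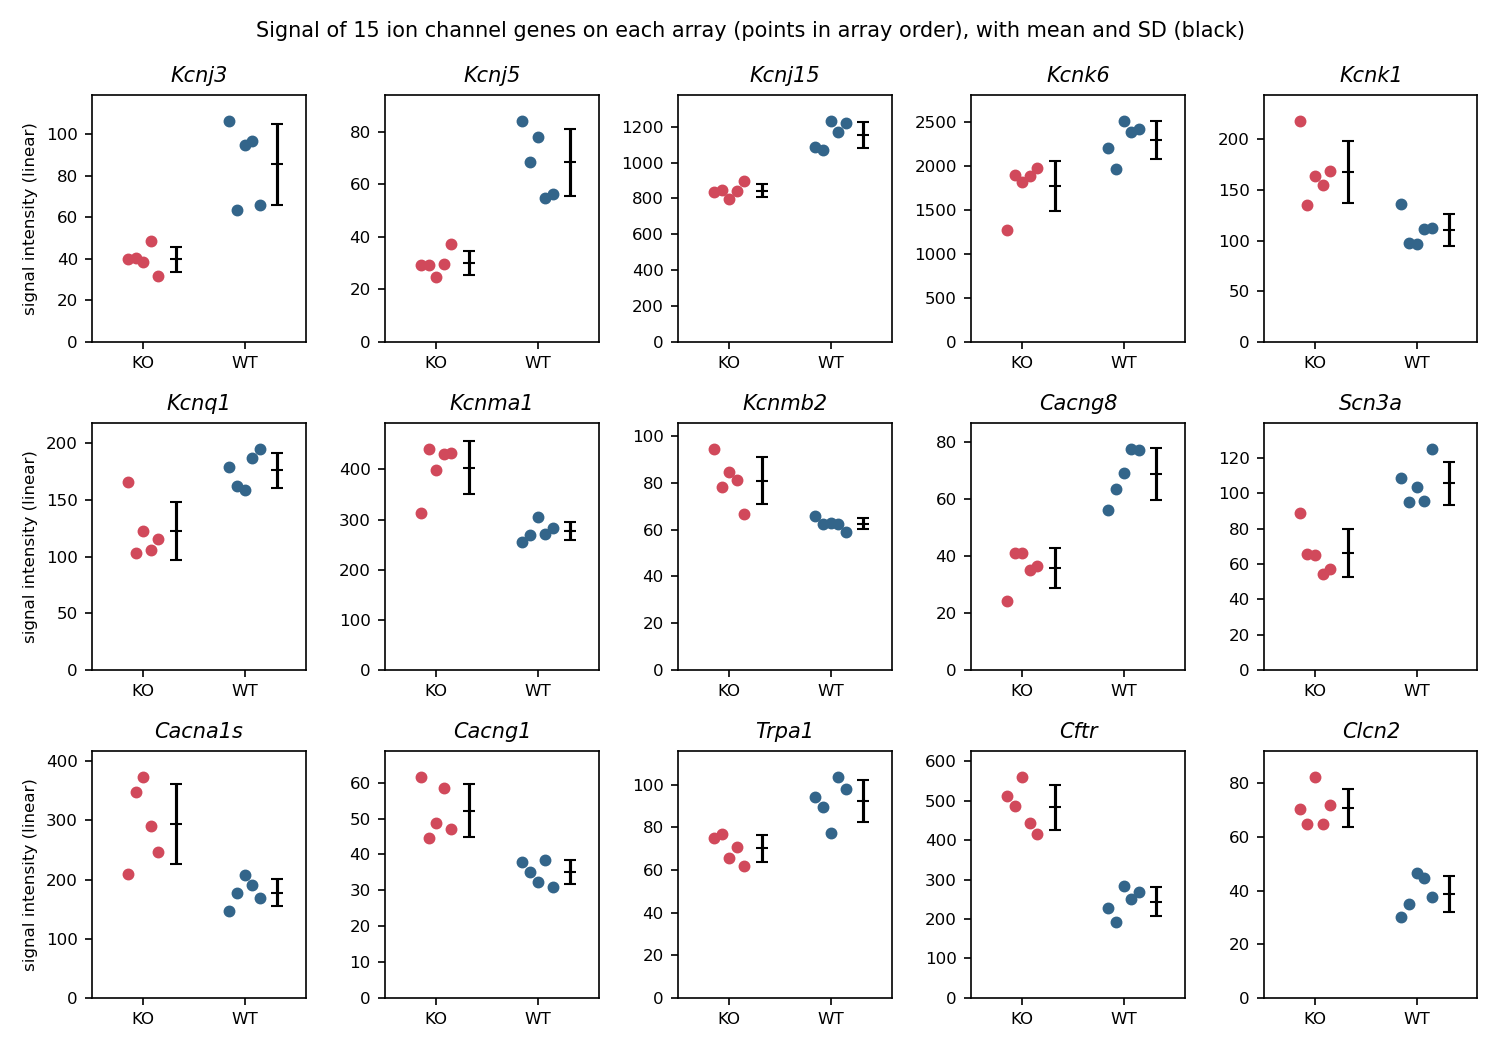
Signal intensity (linear axis from 0) on each of the 10 arrays for 15 called ion channel genes, 1 panel per gene, KO arrays left of WT arrays, with the mean and SD of each group in black. The KO points of Kcnj5 and Kcnj3 lie below all WT points, and those of Cftr and Clcn2 lie above them.

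Tandem-pore channels of the Kcnk family carry the potassium leak that is open at rest. Of 6 tested, Kcnk6 and Kcnk16 fell and Kcnk1 rose. Kcnk6 (TWIK-2) had signals of 1269.6, 1893, 1822, 1886 and 1977 on KO arrays, against 2208, 1966, 2506, 2390.0 and 2425 on WT arrays. KO 6 stood far below the other KO arrays, and the highest KO array passed the lowest WT array by a little. This made a log2 change of -0.39 (SE 0.11, adjusted p = 0.0236), and without WT 3, WT 4 or WT 5 it lay between -0.37 and -0.35 and was not called (adjusted p 0.0539 to 0.0553). Kcnk16 (TALK-1), a channel of pancreatic islets, had 42.4 ± 7.72 in KO and 58.9 ± 8.54 in WT (SD, n = 5 each), with overlap and a log2 change of -0.36 (adjusted p = 0.0215). That call was lost without WT 3, WT 4, KO 7 or KO 10 (-0.34 to -0.31, adjusted p 0.0511 to 0.0559).

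Kcnk1 (TWIK-1), the relative of Kcnk6 found in kidney and brain, moved the other way, with signals of 218, 135, 164, 155 and 169 on KO arrays, against 136, 98.1, 96.4, 112 and 112 on WT arrays. WT 1 was just above the lowest KO array, KO 7, and the remaining arrays did not overlap. Its log2 change was 0.53 (SE 0.12, adjusted p = 0.00488), and a weaker probe set gave 0.32. Kcnk2, Kcnk3 and Kcnk5 did not pass the test.

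Voltage-gated potassium channels repolarise excitable cells. Among 16 alpha subunits tested, 2 fell and 0 rose by limma, and at an unadjusted p under 0.05 these were 3 and 0. Kcnq1 (Kv7.1), the delayed rectifier of heart, inner ear and stomach, had signals of 166, 103, 123, 105 and 116 on KO arrays, against 179, 162, 158, 187 and 194 on WT arrays. Only KO 6 reached into the WT range. The log2 change was -0.49 (SE 0.11, adjusted p = 0.00634). Kcnh2 (hERG), the rapid delayed rectifier of the heart, had 56.7 ± 6.75 in KO and 73.7 ± 6.37 in WT (SD, n = 5 each) and a log2 change of -0.31 (adjusted p = 0.0131), with KO 6 again inside the WT range. Kcnq3, a subunit of the neuronal M current, had 297 ± 73.2 in KO and 316 ± 18.1 in WT and a log2 change of -0.11 (adjusted p = 0.571).

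Kcna2, an axonal channel, had signals of 45.8, 123, 107, 129 and 131 on KO arrays, against 103, 143, 224, 161 and 142 on WT arrays. Its log2 change of -0.50 did not pass (SE 0.24, adjusted p = 0.14), and KO 6 was far below the other KO arrays. Without KO 6 the change was -0.27 (adjusted p = 0.242), and over the fits without 1 array it lay between -0.62 and -0.27. A second Kcna2 probe set gave -0.57 and passed in the unfiltered fit of every probe set (adjusted p = 0.0341). Kcnh8 had no overlap between its groups, at 24.6 to 28.8 in KO and 28.9 to 43.2 in WT, yet its log2 change of -0.16 was not called (adjusted p = 0.135), and without WT 1 it was -0.09. The other 11 alpha subunits that were tested, Kcna1, Kcna5, Kcna7, Kcnc1, Kcnc4, Kcnd1, Kcnd3, Kcng2, Kcnh1, Kcnh3 and Kcns3, did not pass either on their probe sets of highest mean. Of Kcnh3, however, 2 weaker probe sets were lower and past the threshold in that unfiltered fit, at -0.35 (adjusted p = 0.0217) and -0.40 (adjusted p = 0.0228).

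Among 8 tested auxiliary subunits of these channels, Kcnip2 and Kcne2 fell and 0 rose by limma. At an unadjusted p under 0.05, Kcnip3 was lower too, which made 3 lower and 0 higher. Kcnip2 (KChIP2), which brings Kv4 channels of the heart to the membrane, had signals of 45.7, 46.6, 53.2, 49.1 and 42.1 on KO arrays, against 57.7, 71.9, 55.5, 75.2 and 65.7 on WT arrays, without overlap. The difference was a log2 change of -0.35 (SE 0.08, adjusted p = 0.00694). Kcne2, which joins Kcnq1 in the acid-secreting cells of the stomach, had signals of 50.8, 67.9, 58.6, 85.7 and 69.05 on KO arrays, against 122, 97.01, 78.9, 76.99 and 80.6 on WT arrays. KO 9 lay above WT 3, WT 4 and WT 5, and WT 1 was the highest array. The log2 change of -0.38 was barely past the threshold (adjusted p = 0.0495). Leaving out a single array ended the call in 8 of 10 cases, all but WT 4 and KO 9, and the change then lay between -0.41 and -0.28 (adjusted p 0.0505 to 0.11), and with WT 1 and KO 6 both left out it was -0.21 (adjusted p = 0.151). Kcnip3 did not pass, at 107 ± 12.2 in KO and 124 ± 11.7 in WT and a log2 change of -0.19 (adjusted p = 0.125).

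For the epithelial members Kcnj15, Kcnq1 and Kcne2, which fell, the markers of enterocyte-like and hepatocyte-like cells are given beside them. Of 9 such markers tested, 8 fell and Cdh17 rose, with a median log2 change of -1.03 and a summed signal of 3115 to 3834 on KO arrays against 5125 to 7097 on WT arrays. The part of these cells in the changes of Kcnj15, Kcnq1 and Kcne2 was not tested. Other members of epithelia or kidney, Cftr, Clcn2, Clcn5 and Kcnk1, rose. The stomach pump genes Atp4a (log2 change -0.33, adjusted p = 0.0723) and Atp4b (-0.29, adjusted p = 0.0616) did not pass.

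Calcium-activated potassium channels link calcium entry to repolarisation, and their members were called in both directions. Kcnma1, the pore of the large-conductance BK channel, had signals of 313, 439.9, 399, 430.4 and 433 on KO arrays, against 256, 269, 306, 272 and 284 on WT arrays. All KO arrays were above all WT arrays, KO 6 being the lowest of them. The fit gave a log2 change of 0.51 (SE 0.09, adjusted p = 0.00142), and 3 further probe sets gave 0.24, 0.26 and 0.28. Kcnmb2, a beta subunit that inactivates BK channels, had signals of 94.2, 78.3, 84.5, 80.99 and 66.5 on KO arrays, against 65.7, 62.3, 62.6, 62.6 and 59.02 on WT arrays, also without overlap. It rose by 0.30 on the log2 scale (SE 0.08, adjusted p = 0.0132), and its second probe set gave 0.39.

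Lrrc26, the BK gamma subunit of secretory epithelium, is not an ion channel gene by symbol and was listed among the partners. Its signals were 360.0, 233, 279, 226 and 194 on KO arrays, against 121, 132, 134, 109.7 and 91.6 on WT arrays, and all KO arrays were above all WT arrays. The log2 change was 1.02 (SE 0.15, adjusted p = 0.000275), so the pore, a beta subunit and a gamma subunit of the BK channel each rose. Kcnmb4, another beta subunit, did not pass, and Kcnmb1 was not tested.

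Kcnn1 (SK1), a small-conductance channel of neurons, was the 1 member of this class that fell. Its signals were 37.4, 44.1, 37.8, 43.1 and 45.9 on KO arrays, against 75.6, 59.8, 79.5, 71.7 and 58.1 on WT arrays, without overlap. On the log2 scale the difference was -0.55 (SE 0.09, adjusted p = 0.000495), while a second probe set gave -0.10. Kcnn4, the intermediate-conductance channel of lymphocytes and epithelia, had 178 ± 27.7 in KO and 178 ± 23.1 in WT (SD, n = 5 each) and a log2 change of 0.00 (adjusted p = 0.985).

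Voltage-gated calcium channels admit the calcium that triggers contraction, secretion and transmitter release. Their alpha1 subunits were called in both directions. Cacna1s (Cav1.1), the voltage sensor of skeletal muscle, had signals of 210.1, 348, 373, 291 and 247 on KO arrays, against 146, 177, 208, 191 and 169 on WT arrays. KO 6 exceeded WT 3 only slightly, and all KO arrays were above all WT arrays. This made a log2 change of 0.65 (SE 0.14, adjusted p = 0.00451), with a 1.65-fold higher mean. Cacng1, the gamma subunit of that same skeletal muscle channel, had signals of 61.5, 44.7, 48.9, 58.5 and 47.2 on KO arrays, against 38.01, 35.02, 32.4, 38.5 and 31.01 on WT arrays, again without overlap. It rose by 0.41 on the log2 scale (SE 0.08, adjusted p = 0.00238).

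Of 9 tested muscle markers, Actc1, Chrna1, Myog and Tnnt1 fell and Myl1 and Ttn rose, by 1.29 and 0.39 on the log2 scale, while Myod1 was not tested. The summed signal of the list was 1510.5 to 2277 on KO arrays and 1418.5 to 1706 on WT arrays. In that sum Ttn read 599.9 to 1013.8 and 521.4 to 638, and Myl1 234.5 to 661.6 and 111.6 to 177.1, on KO and WT arrays. The part of muscle-like cells in the rise of Cacna1s and Cacng1 was not tested.

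Cacna1d (Cav1.3), the low-threshold L-type channel of endocrine, sinoatrial and hair cells, fell, with signals of 50.2, 63.05, 67.6, 60.96 and 61.9 on KO arrays, against 69.98, 74.7, 83.02, 85.8 and 107 on WT arrays. The highest KO array was just below the lowest WT array, WT 1. Its log2 change was -0.38 (SE 0.10, adjusted p = 0.0142). This rests on 1 kept probe set, whose suffix marks sequence that other transcripts may share. Cacna1e (Cav2.3), the R-type channel of neurons and islets, had 46.4 ± 10.6 in KO and 61.3 ± 5.93 in WT (SD, n = 5 each) with overlap, and a log2 change of -0.32 (adjusted p = 0.0462). That call was lost without any 1 of the WT arrays and without KO 6, KO 8 or KO 10 (-0.35 to -0.23, adjusted p 0.0529 to 0.101). Cacna1b, the N-type channel of nerve terminals, had 442 ± 91.7 in KO and 525 ± 75.2 in WT, which did not pass (log2 change -0.26, adjusted p = 0.224), and without KO 6, its lowest KO array, the change was -0.11.

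Cacng8 and Cacng4 belong to the gamma family by symbol, but are known as auxiliary subunits that bring AMPA-type glutamate receptors to synapses. Cacng8 had the largest fall of the voltage-gated class, at 24.3, 41.3, 41.2, 35.3 and 36.7 on KO arrays, against 56.1, 63.5, 69.2, 77.5 and 77.2 on WT arrays. Its groups did not overlap, and the log2 change was -0.72 (SE 0.11, adjusted p = 0.00038). Cacng4 had 47.7, 47.1, 47.5, 54.98 and 51.5 on KO arrays, against 69.9, 67.5, 69.7, 61.1 and 60.03 on WT arrays, also without overlap, and fell by 0.31 on the log2 scale (SE 0.07, adjusted p = 0.00386). Cacna2d2, an alpha2delta subunit that raises the surface density of calcium channels, had 341 ± 43.02 in KO and 415 ± 43.9 in WT (SD, n = 5 each) and a log2 change of -0.27 (adjusted p = 0.0471). It was not called without WT 2, 3, 4 or 5 or KO 6, 9 or 10, where the change was -0.30 to -0.21 (adjusted p 0.0521 to 0.112). Both Cacng8 and Cacng4 thus fell while Cacng1 rose, and Cacng2 and Cacng7 did not pass.

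Voltage-gated sodium channels carry the upstroke of the action potential. Scn3a (Nav1.3), a sodium channel pore of immature neurons and endocrine cells, had signals of 88.8, 65.8, 65.3, 54.1 and 57.01 on KO arrays, against 109, 95.2, 104, 95.5 and 125 on WT arrays. KO 6 was the highest KO array and still lay below all WT arrays. The log2 change was -0.57 (SE 0.11, adjusted p = 0.00212). The sodium channel beta subunits Scn3b and Scn4b had lower means in KO but did not pass. Scn3b had 52.1, 90.7, 82, 57.5 and 81.2 on KO arrays, against 64.2, 103, 115, 136 and 138 on WT arrays, with a log2 change of -0.51 (adjusted p = 0.0547). WT 1 was the lowest WT array, and without it the change was -0.66 and called (adjusted p = 0.00514). Without KO 7 it was -0.58 and also called (adjusted p = 0.0475). Scn4b had 211 ± 42.9 in KO and 272 ± 39.1 in WT and a log2 change of -0.35 (adjusted p = 0.0649), and passed without WT 1, KO 7 or KO 8 (-0.42 to -0.40, adjusted p 0.042 to 0.0488). Neuroendocrine markers, listed for the neuronal and endocrine members, had 2 falls (Resp18 and Scg3) and 1 rise (Neurod1) among 8 tested. Their summed signal was 2615 to 9838 on KO arrays and 3238 to 5767 on WT arrays. In that sum Chga alone, which did not pass, read 565.6 to 7309.9 on KO arrays and 366.7 to 1619.2 on WT arrays. The part of neuroendocrine cells in the falls was not tested.

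Trp channels are cation channels of sensory and epithelial cells, opened by heat, irritants, lipids or calcium. Trpa1, the receptor of pungent irritants, was the 1 member called among 11 tested. It had signals of 75.1, 77.02, 65.8, 70.6 and 62.1 on KO arrays, against 94.1, 89.4, 77.6, 103 and 98.2 on WT arrays, without overlap. The difference was a log2 change of -0.33 (SE 0.08, adjusted p = 0.00975). Trpm7, a channel fused to a kinase that carries magnesium, had 417 ± 45.2 in KO and 383 ± 56.9 in WT (SD, n = 5 each) and did not pass (log2 change 0.12, adjusted p = 0.41; 0.06 to 0.19 without 1 array). Its relative Trpm6, the magnesium channel of kidney and gut, had 177, 104, 92.3, 96.5 and 85.2 on KO arrays, against 85.8, 82.6, 55.5, 76.9 and 81.6 on WT arrays. KO 6 was far above the other KO arrays, and the log2 change of 0.43 did not pass (SE 0.16, adjusted p = 0.0692). Without KO 6 it was 0.27 (adjusted p = 0.0819), and it passed only without KO 10 (0.50, adjusted p = 0.0477).

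Trpm4, a calcium-activated cation channel, had 179.9 ± 17.4 in KO and 178 ± 20.4 in WT and a log2 change of 0.01 (adjusted p = 0.929). Trpm2, a channel opened by oxidative stress, had 129 ± 25.8 in KO and 167 ± 26.3 in WT and a log2 change of -0.34 that did not pass (adjusted p = 0.084), though it passed without WT 1 (-0.43, adjusted p = 0.0244). Tuft cell markers, a cell type known for Trp signalling, had 4 falls (Sh2d6, Plcb2, Il17rb and Chat) and 0 rises among 11 tested by limma, also at an unadjusted p under 0.05, with summed signals of 1728 to 2968 on KO arrays and 1637 to 3888 on WT arrays. Their part in the Trp values was not tested.

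Chloride channels and exchangers set cell volume, secretion and the pH of endosomes. Cftr, a chloride and bicarbonate channel of secretory epithelium, had the largest rise of the ion channel genes tested. It had signals of 511, 487, 559, 443 and 414 on KO arrays, against 228, 192, 283, 249.7 and 269 on WT arrays. The lowest KO array was well above the highest WT array, and the mean was 483 ± 56.6 in KO and 244 ± 35.7 in WT (SD, n = 5 each), 1.98-fold higher. The fit gave a log2 change of 0.94 (SE 0.11, adjusted p = 4.73e-05). This value rests on the 1 kept Cftr probe set, whose suffix marks sequence that other transcripts may share. With such probe sets left out, Cftr had no value. Of the markers of ionocytes, an airway cell type rich in Cftr, 4 of 7 were tested, Foxi1 fell by 0.51 on the log2 scale (adjusted p = 0.0231) and 0 rose by limma, also at an unadjusted p under 0.05, while Foxi2, Atp6v1g3 and Atp6v1b1 did not exceed the filter. The summed signal of the list was 144.9 to 209.1 on KO arrays and 168.8 to 229.3 on WT arrays, which overlapped, and the part of ionocytes in the rise was not tested.

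Clcn2 (ClC-2), a chloride channel of epithelia and glia that opens on hyperpolarisation, had signals of 70.4, 64.8, 82.2, 64.96 and 72.1 on KO arrays, against 30.3, 34.96, 46.4, 44.6 and 37.7 on WT arrays. The groups did not overlap, the mean was 1.83-fold higher, and the log2 change was 0.67 (SE 0.09, adjusted p = 0.000209). Clcn5, an endosomal chloride-proton exchanger of kidney tubule, had 972, 1097, 1068, 1001 and 945 on KO arrays, against 752, 821, 889.6, 892 and 959.6 on WT arrays. KO 10 lay below WT 5, and the log2 change was 0.24 (SE 0.07, adjusted p = 0.0292). This rise was not called without WT 1 or 2 or KO 7, 8 or 9 (0.19 to 0.24, adjusted p 0.0509 to 0.0769). Other Clcn5 probe sets gave 0.26 and 0.10. Clcn4, a relative of Clcn5, had 509 ± 25.1 in KO and 456 ± 21.6 in WT without overlap, but its log2 change of 0.15 did not pass (adjusted p = 0.0667). Clcn3, a further exchanger of this group, had 942 ± 60.6 in KO and 1055 ± 66.5 in WT and a log2 change of -0.16 (adjusted p = 0.0797), and passed without KO 6 (-0.20, adjusted p = 0.0265). Clcn6, Clcn7 and the Ano genes Ano1, Ano6, Ano9 and Ano10 did not pass.

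**Figure D3:**
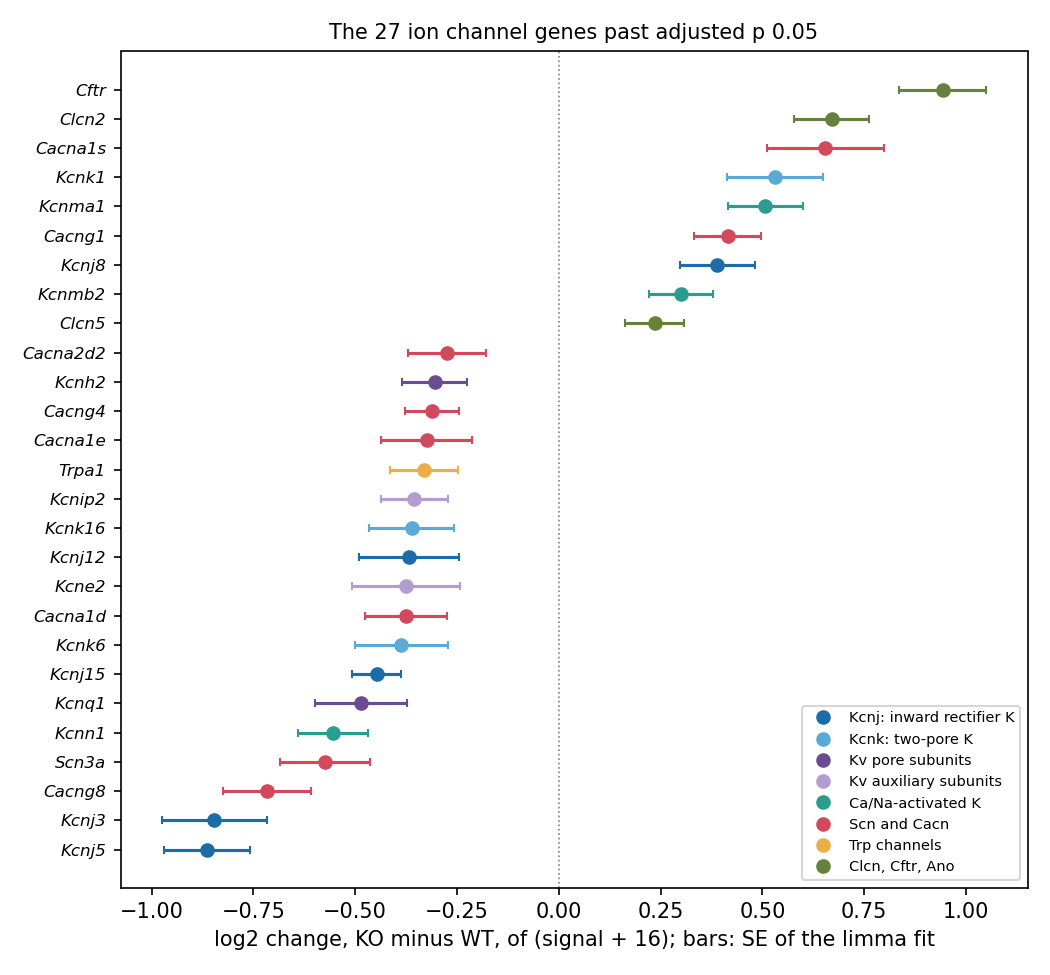
Log2 change (KO minus WT, log2(value + 16) scale) with its standard error from the limma fit for the 27 ion channel genes past the adjusted p threshold of 0.05. The 18 that fell run from -0.86 for Kcnj5 to -0.27 for Cacna2d2, and the 9 that rose run from 0.24 for Clcn5 to 0.94 for Cftr.

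Some genes found by symbol encode no channel subunit. Kcnq1ot1, the noncoding RNA that runs antisense within Kcnq1, had a log2 change of -0.03 (adjusted p = 0.903) on its probe set of highest mean. In the unfiltered fit of every probe set its other kept probe sets disagreed, at 0.09 (adjusted p = 0.56) and, past the threshold, -0.29 (adjusted p = 0.0126). Trpc4ap, a ubiquitin ligase adaptor, had 0.01 (adjusted p = 0.954), and Kcnmb4os2, an opposite-strand transcript, had 0.14 (adjusted p = 0.175). Kcnmb4os1 was not tested.

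The other 58 ion channel genes were not tested. Of these, 46 never exceeded the 40th percentile on any array and 12 did so on 1 to 4 arrays, with single-array signals from 6.47 to 52.6. They included 15 of 31 alpha subunits of voltage-gated potassium channels, among them Kcna3, Kcna4, Kcnd2 and Kcnq5, and Kcnj1, Kcnj2, Kcnj4, Kcnj6 and Kcnj14 of the inward rectifiers. Among sodium and calcium channels 12 of 35 were not tested, including the neuronal pores Scn1a and Scn2a, the pain-fibre pores Scn10a and Scn11a and the cardiac pore Cacna1c. The sensory channels Trpv1 and Trpm8, the muscle chloride channel Clcn1 and the epithelial calcium channel Trpv6 also stayed under the filter. Scn8a reached it on 4 arrays with its highest-mean probe set, at 16.2 in KO and 30.0 in WT on average. Genes under the filter were not compared between the groups here, and a signal under it is not evidence that a gene is off.

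Of the 27 called genes, 20 had 1 kept probe set and 7 had others. Of those 11 other probe sets, 9 exceeded the 40th percentile on all 10 arrays. Among these 9, 8 had the sign of the first, and 3 of the 8 were past the threshold in the unfiltered fit of every probe set. The exception in sign was the weakest Kcnj15 probe set described above. The other 2, of Kcnj3 and Clcn5, exceeded it on 5 arrays, and the sign of the Kcnj3 one was set by the filter. Of the 68 genes that did not pass, 26 had other kept probe sets, 38 in all, and 6 of these, on Kcna2, Kcnh3, Kcnq1ot1, Kcnt1 and Scn2b, were past the threshold in the fit of every probe set. For Kcnt1, a sodium-activated potassium channel, that probe set gave -0.45 (adjusted p = 0.0125), and for Scn2b, a sodium channel beta subunit, 0.36 (adjusted p = 0.0397).

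**Figure D4:**
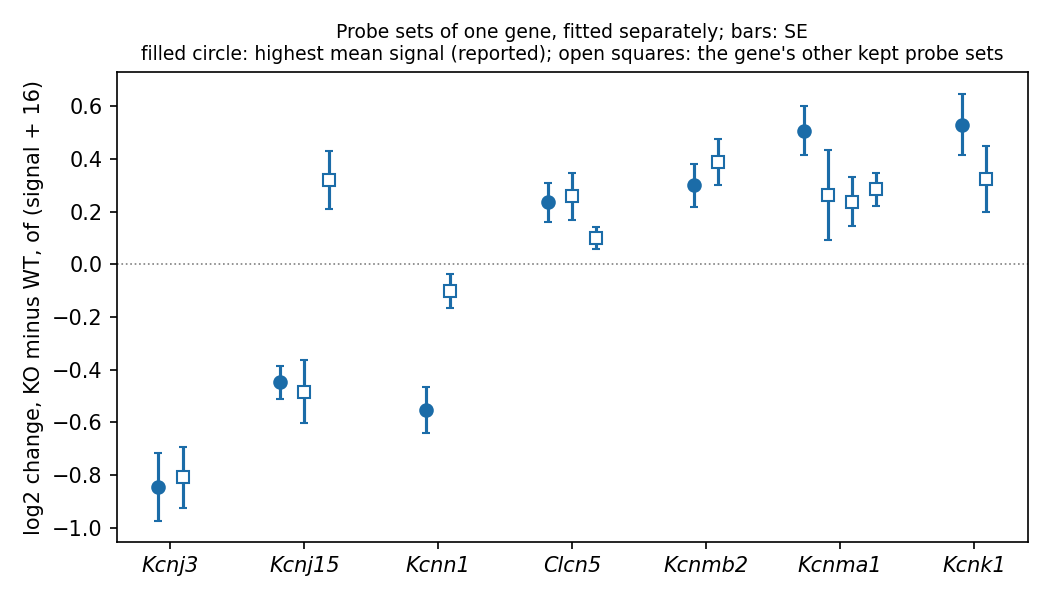
Log2 change (KO minus WT, log2(value + 16) scale) with its standard error for every kept probe set of the 7 called ion channel genes with more than 1; a filled circle is the probe set of highest mean, open squares are the others. All lie on the side of the gene's main probe set except 1 of Kcnj15, at 0.32. The other Kcnj3 probe set passed the signal filter through the WT arrays alone, so its side was set by the filter. The weakest Clcn5 probe set, with a mean of 23.1 in KO and 20.5 in WT, exceeded the filter level on only 5 arrays.

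Other genes of ion flux were described from 2 lists by function. Among all 14086 genes tested, 16.2% fell and 13.0% rose, and neither list was tested against these shares. Of 56 tested genes for other ion channels, 11 fell, 7 rose and 38 did not pass, with a median log2 change of -0.01. The largest falls were those of Pkd2l1, a cation channel of sour-sensing and spinal fluid-contacting cells, with 73.6 ± 11.1 in KO and 172 ± 36.7 in WT (SD, n = 5 each; log2 change -1.05, adjusted p = 0.00012), and of the Clca genes Clca4b and Clca3a2, secreted modulators of calcium-activated chloride current. Clca4b had 57.97 ± 22.5 in KO and 123 ± 31.6 in WT (log2 change -0.93, adjusted p = 0.00299) and Clca3a2 had 609 ± 141 in KO and 1003 ± 207 in WT (log2 change -0.71, adjusted p = 0.00986), and probe sets of related Clca genes may share sequence. Clca2 and Clca3a1 fell too, while Clca1 (log2 change 0.33, adjusted p = 0.114) and Clca4a (-0.14, adjusted p = 0.434) did not pass. Clic3, an intracellular chloride channel protein, rose most, with 678 ± 144 in KO and 255 ± 33.7 in WT (log2 change 1.34, adjusted p = 1.97e-05).

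Scnn1b, the beta subunit of the epithelial sodium channel, had 61.7 ± 9.56 in KO and 34.5 ± 1.59 in WT (log2 change 0.61, adjusted p = 0.000178). P2rx4, an ATP-gated cation channel, had 1243 ± 88.3 in KO and 958 ± 111 in WT (log2 change 0.38, adjusted p = 0.0053), which was not called with probe sets averaged (0.34, adjusted p = 0.0663) or with probe sets of shared sequence left out (0.55, adjusted p = 0.26).

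Beside the same shares of all genes, 16.2% lower and 13.0% higher, 8 of 42 tested channel partners, pumps and ion transporters fell and 7 rose. The other 27 did not pass, and the median of the list was -0.03. Slc26a4 (pendrin), a chloride-bicarbonate exchanger, had 162 ± 10.3 in KO and 256 ± 44.7 in WT (SD, n = 5 each; log2 change -0.60, adjusted p = 0.0017). Slc9a3 (NHE3), the sodium-proton exchanger of gut and kidney, had 53.6 ± 8.58 in KO and 90.2 ± 20.4 in WT (log2 change -0.59, adjusted p = 0.00683). Stk39 (SPAK), a kinase that regulates chloride cotransporters, had 237 ± 15.5 in KO and 343 ± 31.6 in WT (log2 change -0.50, adjusted p = 0.000343). Beside the rise of Lrrc26 given above, Nedd4l, the ubiquitin ligase that removes epithelial sodium channels from the membrane, had 476 ± 27.4 in KO and 276 ± 29.4 in WT (log2 change 0.76, adjusted p = 2.34e-05). Fxyd3, a regulator of the sodium-potassium pump, had 3643 ± 691 in KO and 2377 ± 603 in WT (log2 change 0.63, adjusted p = 0.0132).

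Fezf2 itself had signals of 12.1 to 18.3 on KO arrays, all under the 40th percentile, and 5054 to 5895 on WT arrays, at least 251-fold lower in KO with that percentile as the floor (log2 change -7.47, SE 0.07, adjusted p = 5.3e-15; exact two-sided permutation p = 0.00794, the smallest this design allows). Array medians lay between 36.5 and 38.03. WT 1 and KO 6 stood apart in the mean signal of 24 poly-A spike-in probe sets (758.9 on KO 6 and 536.5 on WT 1, against 115.4 to 422.2 elsewhere) and of 3 for 18S RNA (3762 on KO 6 and 3446 on WT 1, against 764.6 to 1774 elsewhere). The called ion channel genes numbered 19 lower and 10 higher without both arrays, and 24 of the 27 calls held. Of all 14086 genes, 2479 were then lower and 1938 higher. The female-specific Xist signal was low on 2 KO arrays and 1 WT array. With that as a term 16 ion channel genes were lower and 9 higher, against 2129 and 1745 of all genes. Of the gate and mature mTEC markers, Epcam averaged 7695 in KO and 7344 in WT, Cd80 did not pass, Aire and Krt14 fell, and Ctsl and Krt5 rose. Of 8 tested thymocyte markers 0 passed in limma, with 0 at an unadjusted p under 0.05. Of 3 B cell markers 1 fell and 1 rose, and of 8 myeloid markers 5 fell and 1 rose.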

How the data were processed

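RNA of sorted mTECs was measured on 10 Affymetrix arrays, 5 of Fezf2 KO and 5 of WT mice. The authors deposited 1 linear intensity per probe set and array. The submitters' processing notes name MAS5 and no version. Scaling target, background step and filters were not given in the sources used, and precision is limited by the number of arrays. The platform annotation gave 1 gene symbol for 34958 of 45101 probe sets, several for 932 and none for 9211. All 153 ion channel genes matched the RefSeq table of assembly GRCm38.p6.

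After the 40th percentile filter, log2(value + 16) was fitted with limma 3.58.1 (R 4.3.3; lmFit and eBayes, trended and robust) and no normalization was added. The fit ran over 14086 genes with Benjamini-Hochberg adjustment, and the procedure was tested on simulated data. Every adjusted p is from this limma fit or from the alternative named beside it, except those of probe sets other than a gene's reported one. These come from a separate limma fit of all 34958 probe sets with 1 symbol, without the filter and adjusted over all of them. In that fit the reported probe sets of Kcne2, Kcnj12, Cacna1e and Cacna2d2 did not pass (adjusted p 0.05345 to 0.0692).

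The members and gene lists were chosen with earlier results of these data known. Genes were named by rule: Fezf2, the 14 largest falls and rises among members past the threshold, the 2 members of highest signal in each of 8 classes, and the 3 largest changes each way in each further list. Kcnh2, Cacna1e and Cacng4, also called, and Clcn4, Kcna2, Kcnh8, Scn3b, Scn4b, Trpm2 and Trpm6, near the threshold or without overlap, were named after their values were seen, as were Kcnq1ot1, Trpc4ap and Kcnmb4os2, which encode no channel subunit.

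Alternatives changed the offset, normalization, filter, probe set, variance model, array weights, threshold and arrays. Background correction could not be varied, since scanner files were not used here.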

Additional observations from a re-analysis of the deposited data

Results flagged for a closer look

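In 116 groups of 5 arrays, 1 for each named gene and genotype, 9 held an array whose gap to its nearest neighbour was over 0.71 of the range; chance gives about 1 in 20. KO 6 was the array in 5 of them. It read 1269.6 for Kcnk6 against 1822.5 to 1977.4 on the other KO arrays, 312.8 for Kcnma1 against 399.1 to 439.9, and 281.1 for Cacna1b against 457.5 to 503.3. It also read 45.84 for Kcna2 against 106.7 to 130.8, and 176.8 for Trpm6 against 85.17 to 104.1. KO 6 was the array with the highest spike-in and 18S signal, and the mean absolute log2 deviation of the ion channel genes from their group mean was 0.212 on KO 6, against 0.0826 to 0.141 on the others. The part of either in these values was not tested.

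Among WT arrays, WT 1 read 43.2 for Kcnh8 against 28.89 to 31.08 on the others, and 178.7 for Clca4b against 104.1 to 114.4. WT 3 read 55.5 for Trpm6 against 76.89 to 85.81, and 656.4 for Clca3a2 against 999.1 to 1178.8.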

How the results depend on the processing

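Of the 27 called ion channel genes, 20 kept their call in all 10 fits without 1 array, 19 kept it in those and in each other setting that gave them a value, the adjusted p threshold of 0.01 aside, and 0 reversed in limma under any setting tried. Of these 19, 6 had a value in every setting and 13 did not, since the 60th percentile filter kept 14 of the 27 and the limit to probe sets without shared-sequence suffixes kept 23. That limit left Cftr, Cacna1d, Kcnh2 and Kcne2 without a value. Genes lower and higher numbered 24 and 11 with array weights, 25 and 11 with WT 1 and KO 6 as a batch term, 19 and 10 without both arrays, 16 and 9 with Xist as a term or with median centring, 17 and 9 after quantile normalization, and 20 and 11 without a filter. A filter at the 60th percentile left 9 lower and 5 higher, since fewer genes were tested. Of all 14086 genes, 2281 were lower and 1838 higher in the main fit, against 3142 and 2421 with array weights. They numbered 2896 and 2202 with the batch term, 2479 and 1938 without both arrays, and 2129 and 1745 with Xist. Median centring gave 2178 and 1947 and quantile normalization 2265 and 1899. Without a filter 2363 and 1800 of 18194 genes were called, and at the 60th percentile 1810 and 1639 of 10838. At the 0.01 threshold 10 of the 95 ion channel genes were lower and 7 higher, against 1313 lower and 1161 higher of all 14086 genes. Of the 56 other channels 6 were lower and 3 higher, and of the 42 partners 5 were lower and 4 higher. No difference in share was tested. The median of the ion channel genes was -0.1081 with an offset of 1, -0.03857 with 64, -0.02877 without a filter and -0.1231 at the 60th percentile. The partner list had 16 lower and 12 higher with array weights and 13 lower without WT 1 and KO 6, and the other channels 12 higher with those arrays as a batch term; the cause was not tested. Leaving out 1 array gave 13 to 18 lower, 8 to 10 higher and medians of -0.0983 to -0.06291 for the ion channel genes. For other channels it gave 8 to 10 lower, 4 (without WT 2, WT 4, WT 5, KO 7 or KO 8) to 9 (without KO 6) higher and medians of -0.03089 to 0.0298. For partners it gave 6 to 12 lower, 5 to 7 higher and medians of -0.07195 to -0.009343. Among all genes 1857 to 2413 were lower and 1514 to 1872 higher, and Fezf2 lay between -7.506 and -7.435. Some uncalled genes changed sign around 0. With array weights Trpm4 was -0.07532, Kcnq1ot1 0.04654 and Trpc4ap -0.06005. Without WT 1 and KO 6 Kcnq3 was 0.02062, Trpm4 -0.07963, Kcnq1ot1 0.07359 and Trpc4ap -0.03231. With Xist as a term Kcnn4 was -0.004681 and Trpm4 -0.01249. Without 1 array the changes ranged from -0.06371 to 0.06315 for Kcnn4, -0.01882 to 0.06721 for Kcnj11, -0.2205 to 0.004117 for Kcnq3, -0.0514 to 0.05609 for Trpm4, -0.122 to 0.07716 for Kcnq1ot1 and -0.05376 to 0.04724 for Trpc4ap. No paired analysis was made, because the labels give no pairing of KO and WT arrays.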
